A study of Mus musculus with 6 samples.

Results

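Of 8 germline genes whose proteins load recombinases or act in strand invasion during meiosis, 1 was lower beyond the test's threshold in the ovary libraries labelled Hnrnpl-null, and that gene was Tex15. The 8 genes are Dmc1, Psmc3ip, Mnd1, Hsf2bp, 4930432K21Rik (Brme1 in the RefSeq gene table), Meiob, Spata22 and Tex15. They were chosen by name for what their proteins do, with earlier results of these data known, and all 8 are among the 25239 genes of the deposited table. Ovaries at E18.5 (embryonic day), of the strain C57BL/6, gave the RNA of 3 libraries with the genotype WT and 3 with the genotype Hnrnpl-null, whose titles read CKO. The labels do not explain that abbreviation, and they name no Cre driver and no deleted exons. The name of the deposited table contains the word stra8, which the labels do not explain either. Ovaries were dissociated with Liberase and DNase, and the labels mention no sorting step. Whether each library is a different animal is not stated in the labels, and every p-value below reflects variation among these 6 libraries, which may be technical. The libraries labelled Hnrnpl-null are called null libraries below where no replicate is named.

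During meiotic prophase, programmed DNA breaks are cut back to single strands, which RPA covers. MEIOB and SPATA22 form a germline complex that binds this covered DNA. BRCA2, reached through HSF2BP and BRME1, brings the meiotic recombinase DMC1 onto the strand, and the HOP2-MND1 pair, encoded by Psmc3ip and Mnd1, helps DMC1 to invade the homologous chromosome. TEX15 is needed for this loading in spermatocytes and also acts in piRNA-guided transposon silencing. In females these steps take place in the fetal ovary, so oocytes just before birth are mostly late in prophase.

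Promoter windows of 6 of the 8 genes were matched by symbol in the RefSeq table of GRCm38.p6 (Dmc1, Psmc3ip, Mnd1, Hsf2bp, 4930432K21Rik and Spata22). The 250 bases before each annotated start were searched on both strands for the E-box CACGTG, the E2F letters GCGGGAA and the STRA8-associated letters CNCCTCAG. Of 32851 such windows in the whole table, 6.02%, 3.82% and 6.42% held them. In 5 of the 6 genes there was no match to any of the 3 motifs. Hsf2bp had 1 match, to the E2F letters, which is shown in capitals with 10 bases on each side (chr17:32034542-32034568, minus strand). It ends 43 bases before the annotated start. The base directly before that start lies within an exon of another annotation (GENCODE), which may also cover the match. The sequence before Dmc1 (chr15:79605110-79605359, minus strand) and the part before Spata22 that lies outside annotated exons (chr11:73329597-73329740, plus strand) are shown beside it, as the recombinase gene and the member with the highest level per exon length after Tex15.
Hsf2bp: catcttaagaTTCCCGCgtttttgtgt
Dmc1: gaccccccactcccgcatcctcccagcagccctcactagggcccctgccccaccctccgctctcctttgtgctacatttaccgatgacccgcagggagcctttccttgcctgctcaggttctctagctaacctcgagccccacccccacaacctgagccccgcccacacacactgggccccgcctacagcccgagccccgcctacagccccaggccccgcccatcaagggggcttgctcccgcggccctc
Spata22: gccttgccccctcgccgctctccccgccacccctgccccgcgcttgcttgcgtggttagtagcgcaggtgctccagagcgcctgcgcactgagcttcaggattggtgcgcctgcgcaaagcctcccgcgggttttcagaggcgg
Dmc1 was 68.8% G or C over its 250 bases, with 12 CpG pairs, and the 144 bases of Spata22 were 69.4% G or C with 14. A match of letters is a description of sequence and does not show that a factor binds there.

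Depth limits what can be said of most of these genes. Total counts were 8949781 to 22401419 per library, of which the ribosomal precursor Rn45s took 18.6% to 36.0% in 4 libraries, 86.1% in Hnrnpl-null replicate 3 and 83.0% in WT replicate 1. These libraries also stood apart over all tested genes: Hnrnpl-null replicate 3 was at 112 on the first principal component (53.7% of the variance) and the others between -36.1 and -5.91, and WT replicate 1 was at 54.4 on the second (20.8%) and the others between -40.6 and 11.7. Levels below are CPM, the usual depth-scaled count unit, on library sizes scaled by trimmed mean of M values (TMM). In that unit 1 count is worth 0.312 CPM in null libraries replicate 3 and 0.0381 CPM in null libraries replicate 2. Most low counts are even, which counting the mates of each pair separately gives, and the counting intervals plotted below take a pair as 2 counts. The 8 genes together had 1598 to 4781 counts per WT library and 2720, 2380 and 280 counts in Hnrnpl-null replicates 1 to 3. Tex15 alone made up 70.0% to 89.1% of them. Hnrnpl itself was at 162 ± 14.8 CPM in the WT group, against 184 ± 25.5 CPM in null libraries (SD, n = 3 each), counted over all its exons and all cells. It was not called, so its count does not check the labels.

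**Figure D1:**
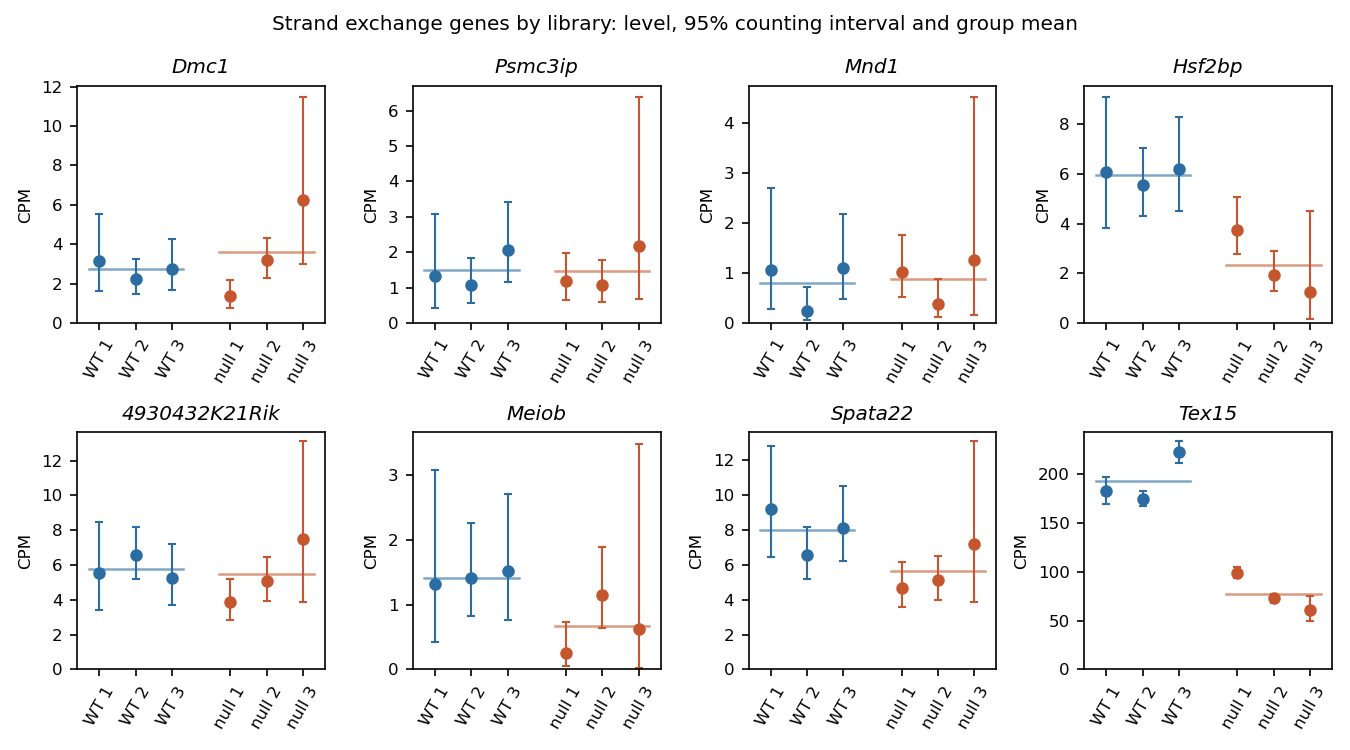
Level of each of the 8 genes (CPM, linear axis from 0, own scale per panel) in the 3 WT libraries (blue) and the 3 Hnrnpl-null libraries (orange). Points are libraries, bars are 95% Poisson counting intervals on read pairs, and lines are group means. Tex15, Hsf2bp and Meiob have groups that do not overlap. The bar of Hnrnpl-null replicate 3 is the widest except in Tex15 and Hsf2bp, where that of WT replicate 1 is wider.

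Tex15 fell. The 3 WT libraries, in the order of their replicate numbers here and below, had 183, 175 and 222 CPM, against 98.6, 72.7 and 61.2 CPM in the 3 null libraries. All 3 Hnrnpl-null libraries were below all 3 WT libraries, and the means were 193 ± 25.3 and 77.5 ± 19.1 CPM (SD, n = 3 each). The Hnrnpl-null level was 0.404 of WT, with a 95% interval of 0.317 to 0.516, and the log2 fold change was -1.31 ± 0.16 (SE, edgeR quasi-likelihood adjusted p = 3.8e-04). Leaving out any 1 library gave 0.348 to 0.444 of WT with edgeR adjusted p of 1.2e-04 to 0.0055. The gene lies on chromosome 8, 33570544 to 33585585 (mm10, plus strand), with 8408 exonic bases that no other gene of the table overlaps. In bulk tissue, fewer oocytes and less Tex15 RNA per oocyte cannot be told apart.

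Tex15 was the 1 lower call among the 7 members that passed the filter on low counts, with 0 higher. Of all 14849 tested genes, 4.46% were called, 1.79% lower and 2.67% higher. Hsf2bp and Meiob also had groups that did not overlap, lower in null libraries. Groups did not overlap in 25.6% of all tested genes, and 13.2% were lower in this way. The median log2 fold change was -0.55 over the 7 tested members and -0.01 over all tested genes. Mnd1 did not pass the filter.

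Hsf2bp and 4930432K21Rik encode partners in the complex that reaches BRCA2. Hsf2bp (chromosome 17, 31944769 to 32034508, minus strand) was at 6.06, 5.56 and 6.20 CPM in the WT group, against 3.75, 1.94 and 1.25 CPM in null libraries. The groups were separate, with means of 5.94 ± 0.340 and 2.31 ± 1.29 CPM (SD, n = 3 each), but the lowest library rests on 4 counts. The ratio was 0.430 with a 95% interval of 0.247 to 0.750, and edgeR did not call it (adjusted p = 0.088). It was called lower by DESeq2 (adjusted p = 0.041), by limma-voom (adjusted p = 0.035), by edgeR with no filter (adjusted p = 0.031) and by edgeR without Hnrnpl-null replicate 1 (adjusted p = 0.043). Those settings called 2.98%, 3.35%, 2.34% and 1.06% of their tested genes lower. 

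4930432K21Rik (chromosome 8, 84148038 to 84172597, plus strand) was at 5.53, 6.55 and 5.24 CPM in the WT group, against 3.88, 5.06 and 7.5 CPM in null libraries. Its groups overlapped, with the highest and the lowest of the 6 values both in Hnrnpl-null. The ratio was 0.885 (95% interval 0.561 to 1.40, edgeR adjusted p = 0.82). The Hsf2bp level divided by that of 4930432K21Rik was 1.10, 0.848 and 1.18 in WT and 0.967, 0.383 and 0.167 in Hnrnpl-null. Hnrnpl-null replicate 1 lay within the WT range of this ratio and the other Hnrnpl-null libraries below it. Fold differences of such ratios, here and below, compare geometric means, taken as means of log2 ratios. The geometric mean changed 0.383-fold (two-sided exact permutation p = 0.20 over libraries, adjusted p = 0.50 over 5 partner ratios, of which 4 are given), where 3 against 3 libraries cannot give less than 0.10. The change was 0.590-fold without Hnrnpl-null replicate 3 and 0.245-fold without Hnrnpl-null replicate 1.

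Meiob and Spata22 encode the complex on RPA-covered DNA. Meiob (chromosome 17, 24804382 to 24839787, plus strand) was at 1.32, 1.41 and 1.52 CPM in the WT group, against 0.253, 1.14 and 0.625 CPM in null libraries. These levels rest on 10, 34 and 22 counts in WT and on 6, 30 and 2 counts in Hnrnpl-null. The groups were separate, yet the ratio of 0.488 had a 95% interval of 0.173 to 1.38 and was not called (edgeR adjusted p = 0.47). Without Hnrnpl-null replicate 1 the ratio was 0.685 and without Hnrnpl-null replicate 2 it was 0.249.

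Spata22 (chromosome 11, 73329741 to 73346044, plus strand) was at 9.22, 6.55 and 8.13 CPM in the WT group, against 4.68, 5.10 and 7.19 CPM in null libraries. Hnrnpl-null replicate 3 was above WT replicate 2, so the groups overlapped. The ratio was 0.682 with a 95% interval of 0.455 to 1.02 (edgeR adjusted p = 0.30). The Meiob level divided by that of Spata22 was 0.143, 0.215 and 0.186 in WT and 0.0541, 0.224 and 0.0870 in Hnrnpl-null, with overlap (exact permutation p = 0.40). Rpa1, the large subunit of RPA, was at 29.7 ± 2.0 CPM in the WT group, against 36.8 ± 2.68 CPM in null libraries. Its groups were separate, higher in null libraries, and it was not called (edgeR adjusted p = 0.20). Meiob divided by Rpa1 was 0.0420, 0.0464 and 0.0551 in WT and 0.00670, 0.0294 and 0.0185 in Hnrnpl-null. All Hnrnpl-null values of that ratio were lower, a 0.324-fold difference with the smallest exact permutation p that 3 against 3 allows (0.10, adjusted p = 0.50). That separation follows from Meiob being lower and Rpa1 higher in every null library, so it is no further result. Rpa1 was counted over all cells of the ovary. The ratio changed 0.491-fold without Hnrnpl-null replicate 1.

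Dmc1, the meiotic recombinase, was not called in either direction. Its level was 3.16, 2.24 and 2.76 CPM in the WT group, against 1.35, 3.20 and 6.25 CPM in null libraries. The Hnrnpl-null libraries spanned the whole WT range, and their highest value came from 20 counts, with a 95% counting interval of 3.0 to 11.5 CPM. The means were 2.72 ± 0.463 and 3.6 ± 2.47 CPM (SD, n = 3 each). The ratio of 1.18 had a 95% interval of 0.543 to 2.58 (edgeR adjusted p = 0.86), and it includes changes in either direction. The ratio was 0.854 without Hnrnpl-null replicate 3 (95% interval 0.433 to 1.68) and 1.63 without Hnrnpl-null replicate 1. Dmc1 lies on chromosome 15, 79561498 to 79605109 (minus strand).

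Brca2, whose protein loads DMC1, was at 42.7 ± 5.44 CPM in the WT group, against 33.0 ± 1.01 CPM in null libraries, with separate groups, and was not called (ratio 0.778, edgeR adjusted p = 0.15).

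Psmc3ip and Mnd1, the genes of the HOP2-MND1 pair, were close to the limit of detection. Psmc3ip (chromosome 11, 101092141 to 101095435, minus strand) was at 1.32, 1.08 and 2.07 CPM in the WT group, against 1.18, 1.07 and 2.19 CPM in null libraries. The groups overlapped almost fully, and the ratio of 0.906 had a 95% interval of 0.368 to 2.23 (edgeR adjusted p = 0.93). Of its 972 exonic bases, 67 also belong to Mlx on the other strand, and reads there cannot be assigned without a known strand setting. Mnd1 (chromosome 3, 84087934 to 84155786, minus strand) had 8, 6 and 16 counts in WT and 24, 10 and 4 in Hnrnpl-null. That is 1.05, 0.249 and 1.10 CPM against 1.01, 0.381 and 1.25 CPM, with each group holding 1 low library. With no filter its ratio was 1.06, with a 95% interval of 0.276 to 4.06 (edgeR adjusted p = 0.98). The Mnd1 level divided by that of Psmc3ip was 0.231 to 0.800 in WT and 0.357 to 0.857 in Hnrnpl-null (exact permutation p = 0.60).

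**Figure D2:**
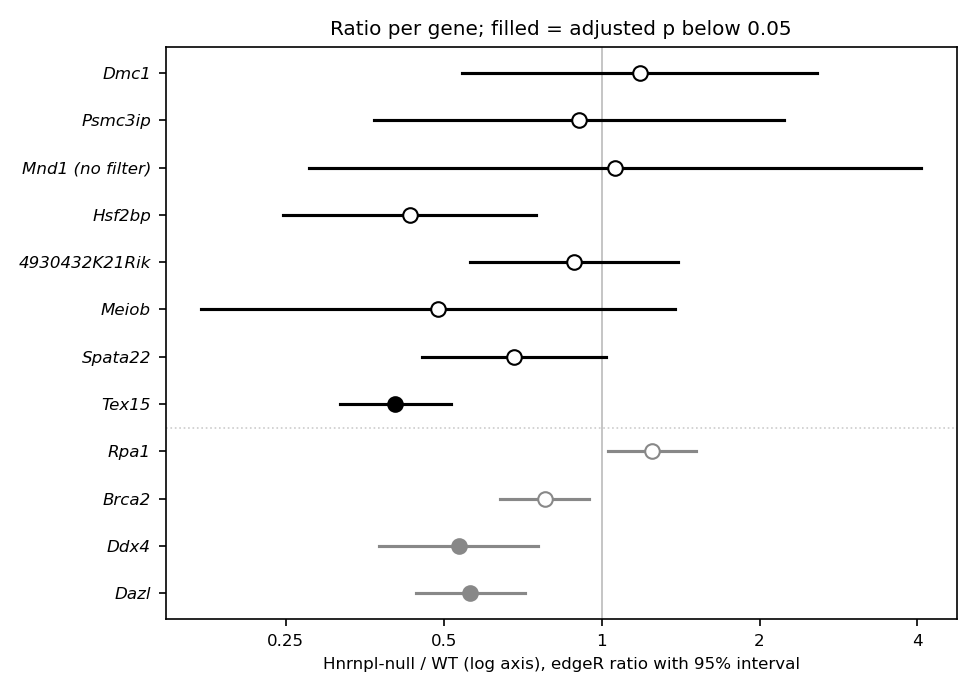
Ratio of Hnrnpl-null to WT (log axis) with its 95% interval derived from the edgeR test for the 8 genes (black, Mnd1 from the fit with no filter) and, in grey, for Rpa1, Brca2 and the germ cell markers Ddx4 and Dazl. Filled points have an adjusted p below 0.05. Tex15 is the filled point among the 8, at 0.404, and the intervals of Dmc1, Psmc3ip, Mnd1, 4930432K21Rik, Meiob and Spata22 include 1.

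Levels between genes were compared per exonic length, as CPM per kilobase. In WT, Tex15 stood at 23.0 ± 3.01 CPM per kilobase (SD, n = 3), higher than 93.8% of tested genes. Spata22 followed at 6.25 ± 1.05. 4930432K21Rik at 2.31 ± 0.276 and Hsf2bp at 2.07 ± 0.119 did not differ beyond their spread. Neither did the neighbours that came next, Psmc3ip at 1.53 ± 0.531, Dmc1 at 1.23 ± 0.208, Mnd1 at 0.917 ± 0.549 and Meiob at 0.830 ± 0.0584. Except for Tex15 and Spata22, the tested members were in the lower 36.8% of tested genes on this scale.

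In Hnrnpl-null, Tex15 was still the highest of the 8, at 9.22 ± 2.27 CPM per kilobase (SD, n = 3), and Spata22 was next at 4.44 ± 1.05. Below them, 4930432K21Rik was at 2.2 ± 0.740, Dmc1 at 1.62 ± 1.12, Psmc3ip at 1.52 ± 0.635, Mnd1 at 1.01 ± 0.514, Hsf2bp at 0.807 ± 0.451 and Meiob at 0.395 ± 0.262 CPM per kilobase. Hsf2bp stood beside 4930432K21Rik in WT, and in Hnrnpl-null 3 other members had means between them.

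The members were then set against Ddx4, an RNA helicase of germ cells. Ddx4 fell from 22.6 ± 2.66 to 11.3 ± 4.68 CPM (SD, n = 3 each, ratio 0.534, edgeR adjusted p = 0.044). Leaving out any WT library, or Hnrnpl-null replicate 2, ended the call (edgeR adjusted p between 0.066 and 0.16), and in Hnrnpl-null replicate 3 it rests on 20 counts. Dazl, an RNA-binding protein of germ cells, fell from 57.8 ± 5.42 to 33.4 ± 8.40 CPM (edgeR adjusted p = 0.0096), and leaving out WT replicate 3, or replicate 1 or 2 of the null libraries, ended that call (edgeR adjusted p between 0.054 and 0.073). Tex15 per Ddx4 was 8.90, 8.04 and 8.66 in WT and 6.37, 5.93 and 9.80 in Hnrnpl-null. Hnrnpl-null replicate 3 lay above all WT values and the other null libraries below all of them. The difference of geometric means was 0.843-fold (exact permutation p = 0.40). It was 0.721-fold without Hnrnpl-null replicate 3 and 0.927-fold without Hnrnpl-null replicate 2. Hsf2bp per Ddx4 was 0.295, 0.256 and 0.242 in WT and 0.243, 0.158 and 0.200 in Hnrnpl-null, a 0.750-fold difference with overlap (exact permutation p = 0.20).

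Dmc1 per Ddx4 was 0.154, 0.103 and 0.108 in WT and 0.0872, 0.261 and 1.0 in Hnrnpl-null. The difference of geometric means was 2.37-fold and the groups overlapped (exact permutation p = 0.40). It was 1.26-fold without Hnrnpl-null replicate 3 and 4.28-fold without Hnrnpl-null replicate 1. The remaining 5 members changed between 0.852-fold (Meiob) and 2.52-fold (Mnd1) per Ddx4, with Spata22 at 1.5-fold, 4930432K21Rik at 1.96-fold and Psmc3ip at 2.08-fold. Without Hnrnpl-null replicate 3 these were 1.54-fold for Mnd1, 1.01-fold for Spata22, 1.26-fold for 4930432K21Rik and 1.28-fold for Psmc3ip. Without WT replicate 2 Mnd1 was at 1.58-fold, without Hnrnpl-null replicate 2 at 3.9-fold, and Meiob was at 1.54-fold without Hnrnpl-null replicate 1. In all 8 the groups overlapped, and the adjusted p over the 8 exact permutation tests was 0.53 to 1. With 3 against 3 libraries the exact p cannot be less than 0.10, which is above the threshold for a call. These tests therefore cannot decide whether any of the 8 ratios differs between the groups.

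**Figure D3:**
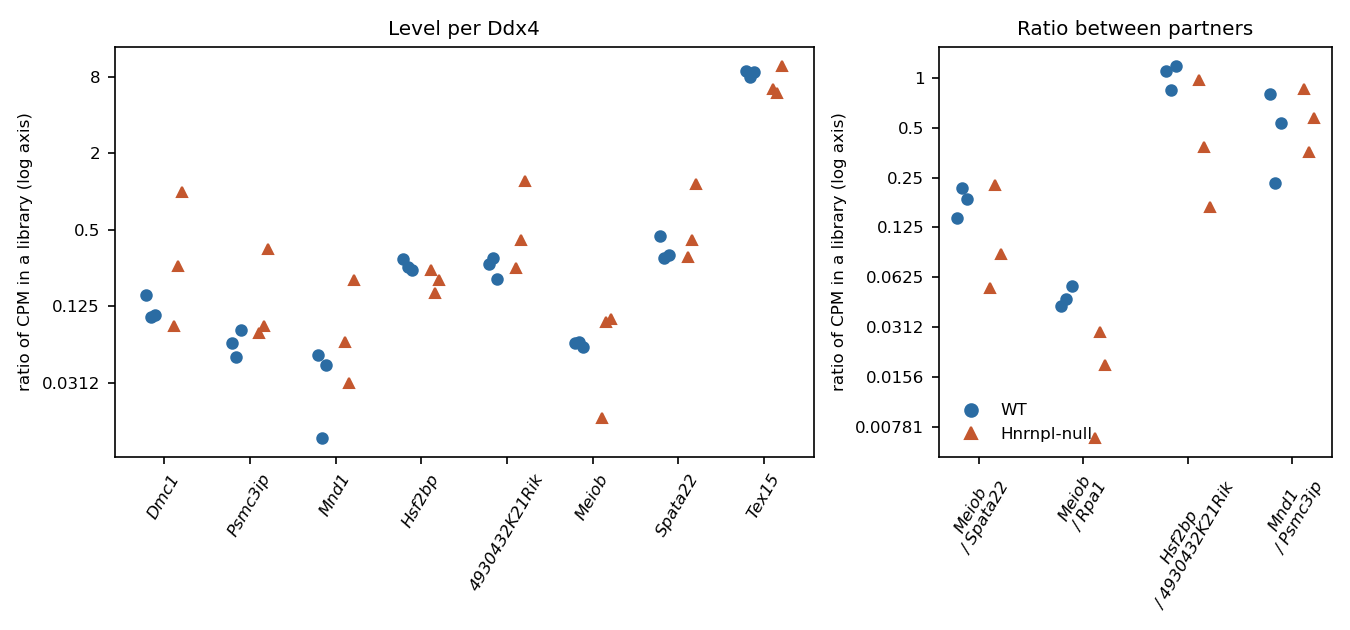
Ratio of CPM within each library (log axis), for each of the 8 genes divided by Ddx4 (left) and for 4 pairs of partners (right). Blue circles are the 3 WT libraries and orange triangles the 3 Hnrnpl-null libraries. Meiob divided by Rpa1 is the pair whose groups do not overlap, and the Hnrnpl-null libraries spread more widely than WT in most ratios.

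The recombination lists around strand exchange were counted in the same way, beside 1.79% lower and 2.67% higher among all tested genes. With 1 library left out, 0.68% to 2.04% of all tested genes were called lower. Of 9 tested genes listed for double-strand break formation or break hotspots, 4 fell and 0 rose, with a median log2 fold change of -1.08. Mei1, needed for break formation, fell from 6.55 ± 1.06 to 1.99 ± 1.37 CPM, and Ankrd31, which acts with the break machinery, fell from 11.6 ± 2.51 to 4.81 ± 1.02 CPM. Hormad1, an axis protein that promotes breaks, fell from 9.0 ± 0.748 to 3.76 ± 0.568 CPM. Zcwpw1, a reader of the histone marks at break hotspots, fell from 21.1 ± 3.48 to 11.8 ± 1.32 CPM, with 19.1% of its exonic bases shared with Pilra on the other strand. Spo11, which cuts the DNA, was at 4.87 CPM in the WT group, against 3.51 CPM in null libraries and was not called. With 1 library left out, the lower calls of this list were 1, 0 and 2 without WT replicates 1, 2 and 3, and 1, 2 and 4 without Hnrnpl-null replicates 1, 2 and 3.

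Of 16 tested genes of crossover formation and late recombination, 2 fell and 0 rose, with a median log2 fold change of -0.63. Hfm1, a helicase of crossover formation, fell from 19.9 ± 1.82 to 10.8 ± 3.83 CPM, and Mlh3, a mismatch repair protein at crossovers, fell from 26.8 ± 2.80 to 16 ± 2.84 CPM. Neither was called without WT replicate 2, WT replicate 3 or Hnrnpl-null replicate 1. With Hnrnpl-null replicate 2 left out, Mlh3 remained called.

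Among 29 tested factors that meiosis shares with somatic repair, edgeR and DESeq2 each called 0 and limma-voom called 1 lower, Rad50, a subunit of the complex that trims broken ends. At an unadjusted edgeR p below 0.05 there were 4 of the 29, against 2746 of all 14849 tested genes. The median log2 fold change of this list was -0.15, so it stood nearer to that of all genes than the members did. Differences between the lists were not tested.

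**Figure D4:**
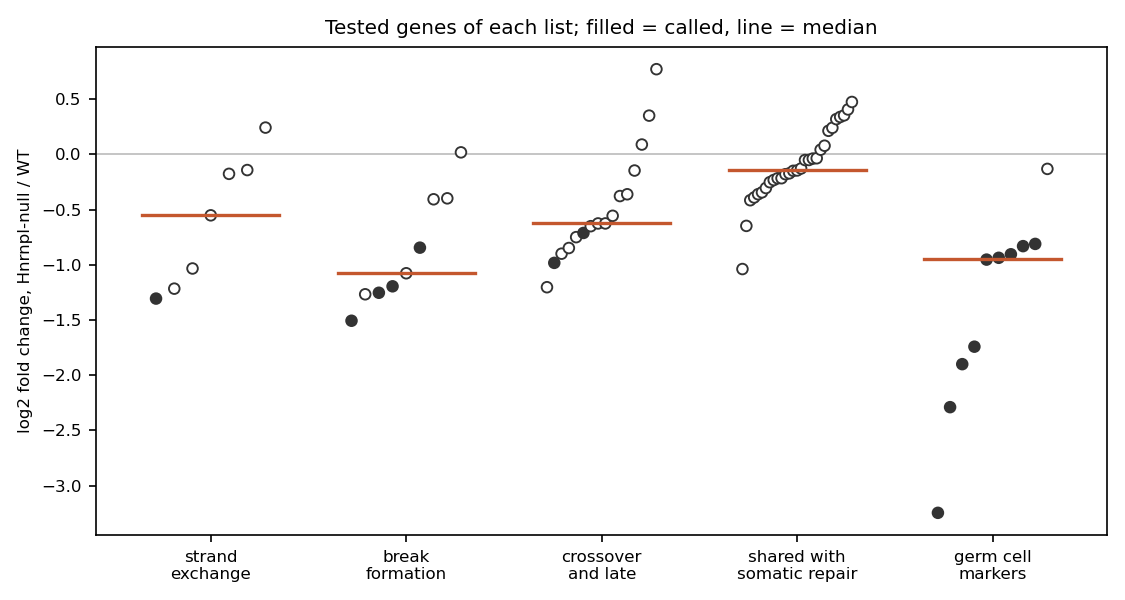
Log2 fold change of Hnrnpl-null against WT for the tested genes of 5 lists, sorted within each list. Filled points have an edgeR adjusted p below 0.05 and the orange line is the list's median, which is -0.55 for the strand exchange genes, -1.08 for break formation, -0.63 for crossover and late factors, -0.15 for factors shared with somatic repair and -0.95 for germ cell markers.

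Marker lists of the cell types in the ovary were counted in the same libraries, where 1.79% of all tested genes were lower and 2.67% higher. With 1 library left out, 0.68% to 2.04% of all tested genes were called lower. Of 10 germ cell markers, 9 were lower and 0 higher, and their summed level was 325 to 361 CPM in the WT group, against 180 to 213 CPM in null libraries. The lower calls of this list were 7, 6 and 5 without WT replicates 1, 2 and 3, and 8, 4 and 9 without Hnrnpl-null replicates 1, 2 and 3. Of 12 myeloid and leukocyte markers, 9 were higher, with sums of 59.9 to 66.3 CPM and 667 to 823 CPM, and Ms4a3 was at 0 in all WT libraries. Of 16 proliferation genes, 6 were higher (sums of 576 to 589 CPM and 766 to 776 CPM). Stroma and mural markers had 3 of 9 higher (sums of 4270 to 4610 CPM and 6348 to 7130 CPM). Of those 9, 4 had a log2 fold change below 0, and their median was 0.15. Pregranulosa markers had 1 of 14 higher, Kitl, with overlapping sums (1025 to 1102 CPM and 1032 to 1163 CPM). The higher proliferation calls were 2, 2 and 5 without WT replicates 1, 2 and 3, and 3, 3 and 7 without Hnrnpl-null replicates 1, 2 and 3. In the same order, the higher stroma and mural calls were 2, 1 and 1, and 1, 0 and 2. Without WT replicates 1, 2 and 3, higher calls over all tested genes were 230 of 15645, 146 of 15265 and 207 of 15382. Without Hnrnpl-null replicates 1, 2 and 3 they were 226 of 15324, 145 of 15289 and 532 of 15732. Oocyte is the cell type given in the labels, but the pregranulosa and the stroma and mural markers had high summed levels in every library. Of 6 endothelial markers edgeR called 0, with 3 at an unadjusted p below 0.05, and DESeq2 and limma-voom each called 1 lower and 1 higher. The 6 endothelial markers summed to 143 to 177 CPM in the WT group, against 150 to 161 CPM in null libraries. Of these, 5 had an edgeR log2 fold change below 0, and the median was -0.50. Of 4 tested erythroid markers edgeR called 0, with 2 at an unadjusted p below 0.05, while DESeq2 called 1 higher and limma-voom 2 higher. Among all 14849 tested genes, the higher calls numbered 643 under DESeq2 and 775 under limma-voom, beside 397 under edgeR. In that order of tests, the lower calls numbered 443, 498 and 266. The 8 erythroid markers summed to 20.7 to 36.4 CPM in the WT group, against 30.6 to 73.6 CPM in null libraries, with Hbb-bh1 at 0 in all 6 libraries. The part of these differences in the members' values was not tested.

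The fits with other settings differed most for the members with few counts. Tex15 was called lower in 16 of 17 other fits, the exception being total counts with no scaling factors, where 0.00673% of all genes were called lower. The share of tested genes called lower was 1.87% with relative log expression size factors, 1.83% without Rn45s, 1.95% with a mean of at least 1 CPM, 2.56% with halved counts, 2.53% with robust dispersions and 1.21% with the replicate block. It was 0.895%, 0.727% and 0.832% without WT replicates 1, 2 and 3, 0.68% and 2.04% without Hnrnpl-null replicates 2 and 3, and 2.03% without both libraries richest in Rn45s. Hsf2bp was below WT in all 17 other fits and called in 4 of them. Meiob and Spata22 were below WT in all 17 and called in 0. Dmc1 was above WT in 13 of 17 other fits and below it in 4, and it was called in 0. Without both libraries richest in Rn45s, Tex15 was at 0.434 of WT (edgeR adjusted p = 6.8e-05) and Hsf2bp at 0.486 (edgeR adjusted p = 0.11).

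**Figure D5:**
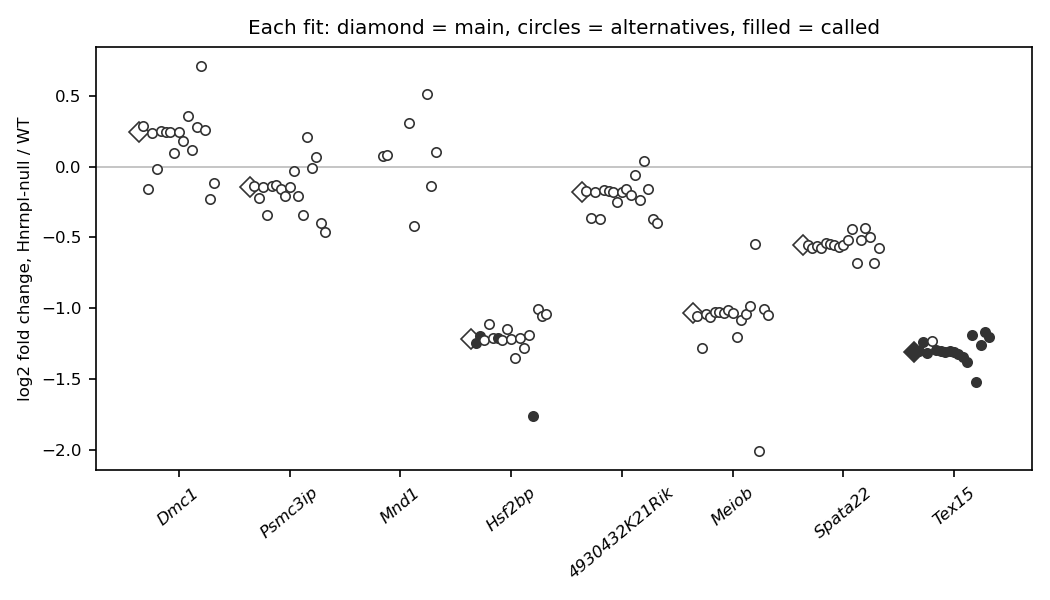
Log2 fold change of Hnrnpl-null against WT for each of the 8 genes in the main edgeR fit (diamond) and in each alternative fit (circles, up to 17 per gene), filled where the adjusted p is below 0.05. Mnd1 has no diamond because it did not pass the filter. Tex15 stays between -1.52 and -1.17, while Dmc1, Mnd1, Psmc3ip and 4930432K21Rik have points on both sides of 0.

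Over the 6 libraries, the genes with the profile most like the mean of the 7 tested members, each scaled to the same variance, were Lpin1 (Pearson's r = 0.98), Aifm3 (r = 0.98), Serpinb6a (r = 0.97), Mlycd (r = 0.97) and Mrps26 (r = 0.97). They were picked from 9905 genes with a mean of at least 5 CPM, and all profiles share the same 6 libraries, 2 groups and depths. Of these genes, Aifm3 fell, from 7.63 ± 1.33 to 3.01 ± 1.31 CPM (SD, n = 3 each, edgeR adjusted p = 0.029). In Lpin1, the best match, Hnrnpl-null replicate 3 was near WT at 15 CPM against 15 to 15.5 CPM, and replicates 1 and 2 were lower at 11.6 and 12.8 CPM.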

How the data were processed

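The authors deposited raw counts per gene, 1 column per library, in the layout of featureCounts per the file headers. The tools named, per the submitters' processing notes, are featureCounts 2.0.6, HISAT2 2.2.1 and STAR 2.7.11a, without their roles, and the build is mm10. The annotation is not given in the sources used here, nor is the strand setting. Exonic lengths (another column, per the file headers) were used to express levels per kilobase. The main test of genotype was edgeR 4.0.16 under R 4.3.3 (filterByExpr, TMM, glmQLFit, glmQLFTest, two-sided, genotype as the only term, all 6 libraries), with Benjamini-Hochberg adjustment over all 14849 tested genes and a threshold of 0.05. That test returns no SE, so the SE was taken as the absolute log2 fold change divided by the square root of F. The 95% intervals of ratios were built from this SE with a t quantile. The filter was tried with and without, and the fit was tested on simulated data. DESeq2 1.42.0, limma 3.58.1 (voom), other scalings, other filters, halved counts, robust dispersions, the replicate number as a block and leaving out libraries were alternatives. Counting intervals are exact Poisson at 95% on read pairs and cover counting error only. The members and gene lists were chosen with earlier results of these data known. The genes named are the members, Hnrnpl, Rpa1, Brca2, Ddx4, Dazl, up to 8 called genes of each of the 3 recombination lists, and the 5 genes with the most similar profile. A gene and 1 partner ratio under this rule are not reported here, and that ratio stays in the adjustment. Others named, such as Rad50, Spo11 and the marker genes, were picked after their values were seen. Of 140 list symbols, 2 were matched through RefSeq synonyms and 2 were not matched. Gene-level counts hold no splicing, which was left out.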

Additional observations from a re-analysis of the deposited data

How the results depend on the processing

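Members called lower were 1 in the main test, 2 with DESeq2, limma-voom or no filter, 0 with total counts alone, and 1 to 2 when 1 library was left out. The second member was Hsf2bp, with log2 fold changes of -1.25 (DESeq2), -1.20 (limma-voom), -1.21 (no filter) and -1.76 (without Hnrnpl-null replicate 1), from -1.76 to -1.01 with 1 library left out. The Tex15 call was lost with total counts (log2 fold change -1.23, adjusted p = 1.0). Of the uncalled members, 4 changed sign (Dmc1, 4930432K21Rik, Mnd1 and Psmc3ip). Dmc1 was at -0.15 with limma-voom, -0.013 with total counts and -0.12 without both libraries richest in Rn45s. When 1 library was left out the log2 fold change was -0.23 to 0.71 for Dmc1, -0.37 to 0.040 for 4930432K21Rik and -0.40 to 0.21 for Psmc3ip. Mnd1 passed the filter in 4 of those 6 fits, with -0.42 to 0.51. Factors shared with somatic repair had 1 lower call (Rad50) with limma-voom, with no filter and without both libraries richest in Rn45s, and 0 to 1 when 1 library was left out. The break formation list had 0 lower calls with total counts and 0 to 4 with 1 library left out. The crossover list had 0 lower calls with total counts, 0 to 2 with 1 library left out, and 1 higher call (Trip13) with limma-voom or no filter. Over all genes 266 were lower and 397 higher. These became 443 and 643 with DESeq2, 498 and 775 with limma-voom, 471 and 633 with no filter, 1 and 3 with total counts, and 104 to 321 and 145 to 532 with 1 library left out. On the log2 scale, Mnd1 to Psmc3ip was -0.22 to 0.67 with 1 library left out. Meiob to Ddx4 was 0.27 with 0.5 CPM added. With 1 library left out it was -0.68 to 0.62. The cause of these shifts was not tested.

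With the replicate number as a block, the lower call among the members was still Tex15 (1 lower), 179 genes were lower and 265 higher over all genes, and 1 gene of the crossover list and 3 of the break formation list were lower. Mei1 lost its call (edgeR adjusted p = 0.074). Ddx4 was no longer called (edgeR adjusted p = 0.057). Deviations of libraries with the same number had correlations of -0.12, 0.09 and -0.09 in replicates 1, 2 and 3. Across libraries with different numbers the correlations were -0.112 to 0.145. The labels do not say that the numbers pair libraries, and they were not taken to do so. The members with the fewest counts over all libraries are Mnd1, Meiob, Psmc3ip and Dmc1, with 2 to 84 counts per library. Hsf2bp also had only 4 counts in Hnrnpl-null replicate 3.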
